A study of Homo sapiens with 16 samples.

Results

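The 35 human genes that encode aminoacyl-tRNA synthetases were examined in ChIP-seq peak lists of the chromatin proteins HDGF and INTS13 in HEK293T cells. The genes were taken by name, and all 35 were placed by a RefSeq table of GRCh38.p14, which holds 20037 protein-coding genes. They comprise 17 genes for cytosolic enzymes or their subunits, 2 genes whose products serve both the cytosol and mitochondria (GARS1 and KARS1), and 16 genes for mitochondrial enzymes. A gene was counted in a list when the summit of at least 1 peak, the position of its highest coverage, fell no more than 1 kb from its start or its far end. Such a peak is called a boundary peak here.

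An aminoacyl-tRNA synthetase joins an amino acid to its matching tRNA, the step that loads the ribosome's substrates, and separate nuclear genes serve cytosolic and mitochondrial translation for most amino acids. Several cytosolic enzymes assemble with scaffold proteins into a multi-synthetase complex. Many cytosolic synthetase genes are known targets of ATF4, a transcription factor of the integrated stress response that binds composite C/EBP-ATF elements near start sites. INTS13 is a subunit of the Integrator complex, which cleaves nascent RNA and acts on RNA polymerase II near promoters. HDGF is a chromatin-associated growth factor with a PWWP domain, a fold that binds methylated histone H3.

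HEK293T is an established human embryonic kidney line, labelled wild type. HDGF was immunoprecipitated after 24 h in glucose-free medium (starvation) and after a control depletion, with the same Proteintech antibody. The starvation labels name no depletion. For both proteins, an effect of starvation against control therefore cannot be told apart from one of the control depletion. INTS13 was immunoprecipitated after 72 h of HDGF depletion with HDGF-specific siPOOLs (pools of small interfering RNAs), after 24 h of starvation, and after a control depletion. The INTS13 antibody came from Proteintech in the starvation samples and from Bethyl in the depletion and control samples, and for INTS13 in starvation the effects of treatment and antibody cannot be told apart. Each group has 2 labelled replicates but a single deposited peak list, and the remaining 6 of the 16 samples are inputs, not analysed here. There is therefore no replicate error and no test: what follows is a description of 5 lists. HDGF was not mapped in depleted cells in the lists used here, so the depletion was not checked, and peak lists hold no marker expression against which to check the cell line.

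The lists hold 68138 peaks for HDGF starvation, 106674 for HDGF control, 105994 for INTS13 after HDGF depletion, 15639 for INTS13 starvation and 31233 for INTS13 control. The background that the deposited p-values imply ranged from 4.20 reads per position for INTS13 after HDGF depletion to 15.2 for INTS13 starvation, so 1 read is worth more fold in some lists than in others. The share of peaks on chromosome 1 ran from 26.7% in HDGF starvation to 41.1% in INTS13 control. Folds are the authors' enrichment at the summit and were used only within a list. The range beside a fold is the exact 95% Poisson interval of the summit reads that the p-value implies, and it covers counting error only.

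Boundary peaks lay at 20 of the 35 synthetase genes in at least 1 list, against 38.6% of all protein-coding genes. HDGF marked 11 synthetase genes in starvation (31.4%, exact binomial 95% interval 16.9 to 49.3%), against 21.7% of protein-coding genes, and 12 in control (34.3%, 19.1 to 52.2%), against 19.3%. INTS13 marked 15 after HDGF depletion (42.9%, 26.3 to 60.6%), against 19.1% of protein-coding genes. It marked 5 in starvation (14.3%, 4.81 to 30.3%), against 6.71%, and 5 in control (14.3%, 4.81 to 30.3%), against 4.77%. The interval for INTS13 after HDGF depletion lies above the share of all protein-coding genes in that list; in the other lists the share of all genes falls inside the interval or, for INTS13 control, just below it.

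Chromosome 1 carries 7 of the genes (EPRS1, IARS2, PARS2, SARS1, TARS2, WARS2 and YARS1). Of these 7, HDGF marked 4 in starvation and 6 in control, where 39.5% of chromosome 1 genes were marked in each list. INTS13 marked 5 after HDGF depletion (40.1% of chromosome 1 genes), 2 in starvation (15.3%) and 2 in control (16.1%). Among the 28 genes elsewhere, HDGF marked 7 in starvation (19.6% of genes elsewhere) and 6 in control (17%). INTS13 marked 10 of the 28 after HDGF depletion (16.7%), 3 in starvation (5.72%) and 3 in control (3.48%). The share of HDGF-marked synthetase genes was thus lower off chromosome 1. The 10 of 28 marked by INTS13 after HDGF depletion are 35.7% (18.6 to 55.9%), an interval above the share of all genes there. On chromosome 1, the interval for HDGF control (6 of 7, 42.1 to 99.6%) also lies above the share of all genes. That for INTS13 after HDGF depletion (5 of 7, 29 to 96.3%) includes it, as does every other interval of this split.

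**Figure D1:**
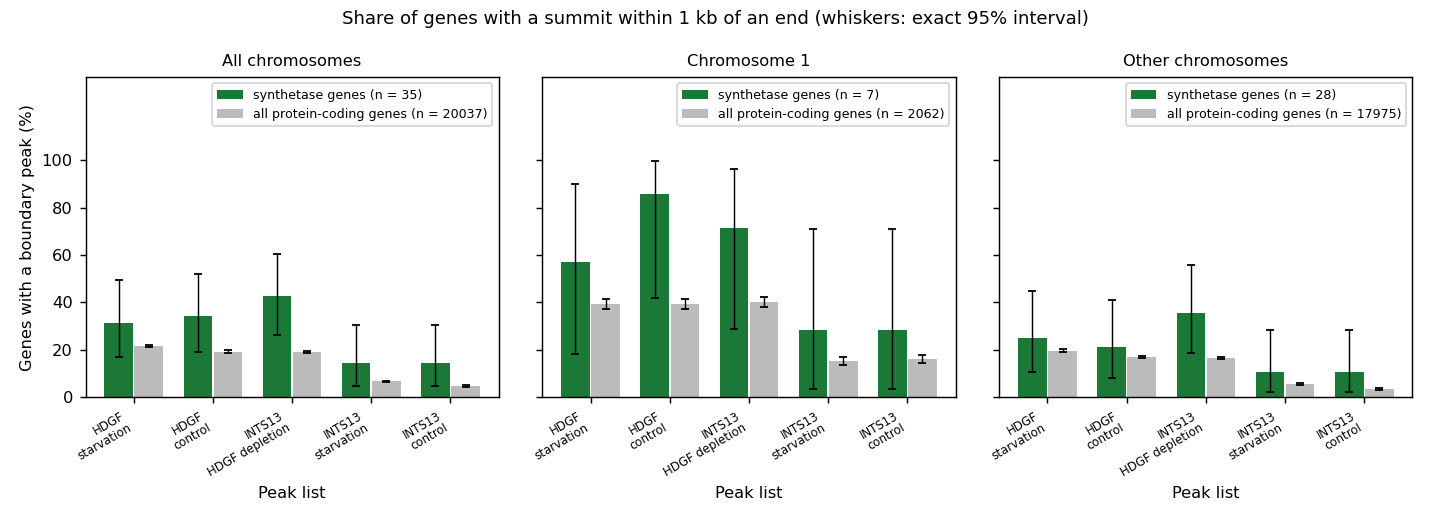
Percentage of genes with a summit within 1 kb of either end (y axis) in each of the 5 lists (x axis), for synthetase genes (green) and all protein-coding genes (grey), on all chromosomes, chromosome 1 and the other chromosomes. Bars are shares of genes and whiskers are exact binomial 95% intervals; the green bar for INTS13 after HDGF depletion is 42.9% and the grey bar beside it 19.1%.

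INTS13 had a boundary peak in all 3 of its lists at KARS1, YARS2, AARS2 and YARS1 (4 genes, against 2.29% of protein-coding genes). KARS1, YARS2 and AARS2 were marked in no HDGF list, a pattern found at 66 of the 20037 protein-coding genes (0.329%). KARS1 (chr16:75627724-75647665, minus strand) encodes lysyl-tRNA synthetase for both compartments. Its INTS13 summit lay 23 bp downstream of the start site after HDGF depletion (4.43-fold, 2.85 to 6.60), 22 bp downstream in starvation (3.70-fold, 2.87 to 4.72) and 66 bp downstream in control (3.65-fold, 2.43 to 5.28). The 3 summits span 44 bp, and the peaks share 190 bp. The window also holds an end of TERF2IP, which encodes a telomere protein, so these peaks lie at both genes.

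YARS2 (chr12:32746544-32755897, minus strand) encodes mitochondrial tyrosyl-tRNA synthetase. Its INTS13 summit lay 85 bp downstream of the start site after HDGF depletion (4.23-fold, 2.69 to 6.37), 47 bp downstream in starvation (3.82-fold, 2.97 to 4.84) and 115 bp downstream in control (3.92-fold, 2.65 to 5.60). AARS2 (chr6:44298731-44313347), for mitochondrial alanyl-tRNA synthetase, had its summit inside the gene, near its higher-coordinate end. The distance to that end was 49 bp after HDGF depletion (4.43-fold, 2.85 to 6.60), 42 bp in starvation (3.53-fold, 2.72 to 4.52) and 100 bp in control (4.19-fold, 2.87 to 5.92). The summits span 68 bp at YARS2 and 58 bp at AARS2, so the peaks stand at nearly the same place in the 3 lists, with both INTS13 antibodies. No other protein-coding gene has an end within 1 kb of these YARS2 and AARS2 summits.

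The nearest HDGF summit to an end of KARS1 was 170462 bp away in starvation and 2467 bp away in control. At YARS2 these distances were 67330 bp in starvation and 3512 bp in control. At AARS2 they were 2276 bp in starvation and 1054 bp in control, so AARS2 falls only just outside the 1 kb window for HDGF control. When any base of a peak counted, HDGF marked AARS2 in control. With a window of 2500 bp, HDGF marked KARS1 and AARS2 in control and AARS2 in starvation. YARS2 was marked by HDGF under neither setting. The INTS13 peaks of KARS1, YARS2 and AARS2 also ranked high within their lists. At KARS1, 2.94% of peaks ranked above its own after HDGF depletion, 7.48% in starvation and 12.7% in control.

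The start regions of KARS1 and YARS2 are shown because the INTS13 peaks of all 3 lists cover them. Each is a RefSeq window of GRCh38.p14 from 250 bases before to 50 bases after the start, written 5′ to 3′ on the gene's own strand, with the bases covered by the peak of every INTS13 list in capitals. KARS1 is chr16:75647616-75647915 and YARS2 is chr12:32755848-32756147, both on the minus strand. The covered bases are the last 57 of the KARS1 window and the last 85 of the YARS2 window, since the peaks reach from the start into the gene.
KARS1: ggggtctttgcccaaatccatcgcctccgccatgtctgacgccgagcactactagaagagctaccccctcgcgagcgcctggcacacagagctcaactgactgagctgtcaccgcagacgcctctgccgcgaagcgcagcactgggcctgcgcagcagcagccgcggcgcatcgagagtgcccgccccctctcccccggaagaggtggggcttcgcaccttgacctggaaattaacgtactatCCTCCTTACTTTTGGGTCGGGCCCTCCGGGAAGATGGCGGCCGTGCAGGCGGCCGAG
YARS2: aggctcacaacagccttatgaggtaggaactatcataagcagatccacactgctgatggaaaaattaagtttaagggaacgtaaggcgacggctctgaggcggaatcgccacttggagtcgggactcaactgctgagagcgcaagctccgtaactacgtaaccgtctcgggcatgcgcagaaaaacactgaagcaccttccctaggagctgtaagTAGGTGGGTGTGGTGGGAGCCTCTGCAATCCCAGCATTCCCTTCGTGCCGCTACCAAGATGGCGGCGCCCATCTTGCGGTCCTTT

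**Figure D2:**
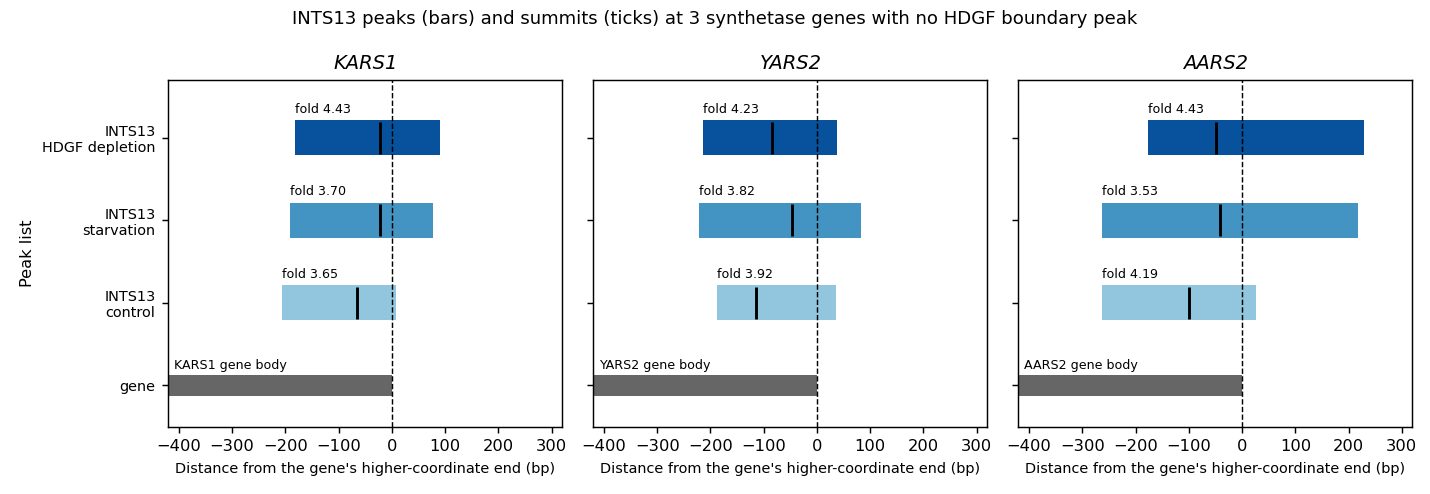
INTS13 peaks (bars, coloured by list, with the fold above each) and their summits (black ticks) at KARS1, YARS2 and AARS2; the x axis is the distance in bp from the gene's higher-coordinate end, which is the start site of KARS1 and YARS2, and the grey bar is the gene body. In each gene the bars overlap and the summits lie within 68 bp of each other, inside the gene.

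YARS1 (chr1:32775239-32817358), for cytosolic tyrosyl-tRNA synthetase, was the only synthetase gene with a boundary peak in all 5 lists, as were 284 protein-coding genes (1.42%). HDGF reached 3.61-fold (2.60 to 4.89) in starvation and 4.03-fold (2.76 to 5.70) in control, at the lower-coordinate end in both lists, where the window also holds an end of NHSL3. In starvation 3 peaks tied at that fold, 1 of them at the higher-coordinate end, 390 bp from it, in a window shared with S100PBP. The HDGF control peak at the lower-coordinate end is 4690 bp wide. INTS13 reached 4.04-fold (2.54 to 6.14) at the lower-coordinate end after HDGF depletion. In starvation and control its strongest peak was at the higher-coordinate end, with 4.46-fold (3.53 to 5.56) in starvation and 3.92-fold (2.65 to 5.60) in control. Both ends of YARS1 held INTS13 peaks in all 3 INTS13 lists. The gene was also dense in summits along its body: HDGF had 28 in starvation and 17 in control, while INTS13 had 36 after HDGF depletion, 1 in starvation and 23 in control.

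**Figure D3:**
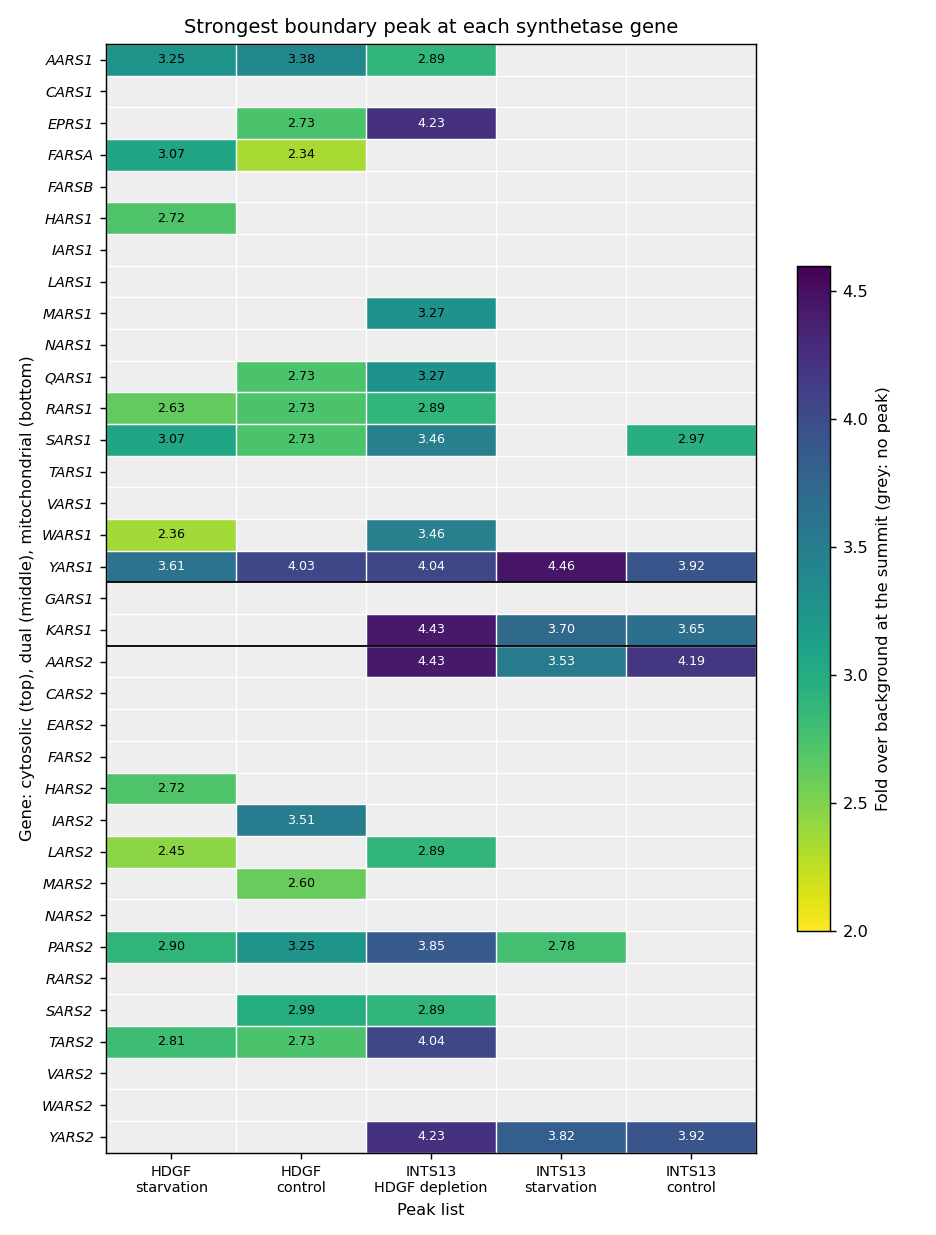
Fold over background at the summit of the strongest boundary peak of each of the 35 synthetase genes (rows, grouped by the compartment their products serve) in each of the 5 lists (columns); grey cells have no boundary peak. KARS1, AARS2 and YARS2 are filled only in the 3 INTS13 columns, YARS1 in all 5, and 15 rows are empty; colours are to be read within a column, since each list has its own background.

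Of the 6 cytosolic synthetase genes marked both by INTS13 after HDGF depletion and by HDGF in control, AARS1, EPRS1 and RARS1 had the 2 proteins at different ends, and QARS1, SARS1 and YARS1 had both proteins at a common end. With the mitochondrial genes PARS2, SARS2 and TARS2 included, 6 of 9 had a common end. Over all protein-coding genes 1381 of 1813 did, so a common end was usual in both. AARS1 (chr16:70252298-70289506, minus strand), for alanyl-tRNA synthetase, had HDGF at its far end, 897 bp inside the gene in starvation (3.25-fold, 2.30 to 4.48) and 874 bp inside in control (3.38-fold, 2.24 to 4.93). INTS13 was listed there only after HDGF depletion, 672 bp downstream of the start site (2.89-fold, 1.67 to 4.71), in a window shared with DDX19B. EPRS1 (chr1:219968600-220046505, minus strand), for the bifunctional glutamyl-prolyl enzyme, had INTS13 233 bp downstream of its start after HDGF depletion (4.23-fold, 2.69 to 6.37). Its single HDGF peak was in the control list, 175 bp beyond the far end (2.73-fold, 1.72 to 4.15). In these 2 lists both genes, like RARS1 below, had INTS13 downstream of the start and HDGF at the far end. The INTS13 peak of AARS1 was weak, with 76.8% of the depletion list ranked above it.

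RARS1 (chr5:168486471-168519301, plus strand), for arginyl-tRNA synthetase, had its single HDGF peak at a different end in each condition. In starvation the HDGF summit lay 36 bp upstream of the start site (2.63-fold, 1.79 to 3.74), and in control 219 bp inside the far end (2.73-fold, 1.72 to 4.15). INTS13 after HDGF depletion lay 530 bp downstream of the RARS1 start (2.89-fold, 1.67 to 4.71). These folds rest on few reads and lie low in their lists: 63.1% of HDGF starvation peaks and 55.5% of HDGF control peaks ranked above those at RARS1. The start window of RARS1, chr5:168486221-168486520 of GRCh38.p14 on the plus strand (RefSeq), is shown 5′ to 3′ because it holds the HDGF starvation summit, with the 219 bases inside that peak in capitals.
RARS1: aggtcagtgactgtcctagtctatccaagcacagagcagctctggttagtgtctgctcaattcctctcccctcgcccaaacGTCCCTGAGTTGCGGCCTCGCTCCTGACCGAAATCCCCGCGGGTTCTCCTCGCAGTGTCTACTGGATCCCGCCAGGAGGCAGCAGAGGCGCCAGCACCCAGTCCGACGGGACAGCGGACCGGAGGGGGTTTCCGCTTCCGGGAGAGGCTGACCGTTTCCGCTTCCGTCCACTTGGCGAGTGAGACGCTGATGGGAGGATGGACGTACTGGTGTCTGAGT

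SARS1 (chr1:109213893-109238182, plus strand), for seryl-tRNA synthetase, was marked in 4 lists. Its strongest HDGF peak stood 343 bp beyond the far end in starvation (3.07-fold, 2.15 to 4.27) and 860 bp upstream of the start in control (2.73-fold, 1.72 to 4.15). Its strongest INTS13 peak stood 989 bp beyond the far end after HDGF depletion (3.46-fold, 2.10 to 5.43) and 194 bp inside the far end in control (2.97-fold, 1.89 to 4.47). MARS1 (chr12:57488068-57516652, plus strand), for methionyl-tRNA synthetase, had INTS13 at both ends after HDGF depletion and was marked in no other list. The stronger summit, 410 bp inside the far end (3.27-fold, 1.95 to 5.19), also lies within 1 kb of an end of DDIT3, a stress-induced transcription factor gene. The other lay 794 bp downstream of the start (3.08-fold), in a window shared with ARHGAP9.

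WARS1 (chr14:100333790-100376327, minus strand), for tryptophanyl-tRNA synthetase, had HDGF in starvation 763 bp beyond the far end, at 2.36-fold (1.57 to 3.42), near the bottom of that list. After HDGF depletion INTS13 lay 430 bp downstream of the WARS1 start (3.46-fold, 2.10 to 5.43), in a window shared with WDR25. QARS1 (chr3:49095932-49104757, minus strand), for glutaminyl-tRNA synthetase, was marked at its far end by both proteins. INTS13 lay 560 bp inside it after HDGF depletion (3.27-fold, 1.95 to 5.19) and HDGF 882 bp beyond it in control (2.73-fold, 1.72 to 4.15), so the peaks stood on either side of the gene's end. The window of that HDGF summit also holds an end of QRICH1. FARSA (chr19:12922479-12933711, minus strand), for the alpha subunit of phenylalanyl-tRNA synthetase, had HDGF alone, inside its far end: 132 bp from it in starvation (3.07-fold, 2.15 to 4.27) and 834 bp in control (2.34-fold, 1.42 to 3.67). HARS1, for cytosolic histidyl-tRNA synthetase, and HARS2, its mitochondrial counterpart, are divergent neighbours on chromosome 5 and share 1 HDGF starvation peak (2.72-fold, 1.86 to 3.85). Its summit lay 266 bp upstream of the HARS1 start and 181 bp downstream of the HARS2 start, so it counts for both genes.

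Of the mitochondrial genes, PARS2 (chr1:54756898-54764523, minus strand), for prolyl-tRNA synthetase, was marked in 4 lists, all except INTS13 control. HDGF stood 576 bp beyond its far end in starvation (2.90-fold, 2.01 to 4.06) and 46 bp beyond that end in control (3.25-fold, 2.13 to 4.78), with a further control summit 142 bp upstream of the start (3.12-fold). INTS13 stood 634 bp downstream of the start after HDGF depletion (3.85-fold, 2.39 to 5.90) and 774 bp beyond the far end in starvation (2.78-fold, 2.07 to 3.67), where it overlapped the HDGF starvation peak. TARS2 (chr1:150487419-150507602, plus strand), for threonyl-tRNA synthetase, had HDGF around its far end in both conditions, in windows shared with ECM1. The strongest was 2.81-fold (1.93 to 3.96) in starvation and 2.73-fold (1.72 to 4.15) in control. INTS13 after HDGF depletion reached 4.04-fold (2.54 to 6.14) at 992 bp inside the TARS2 far end and 3.66-fold at 721 bp downstream of its start.

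SARS2 (chr19:38915266-38930763, minus strand), for mitochondrial seryl-tRNA synthetase, had the 2 proteins on either side of its start. INTS13 lay 629 bp downstream of the start after HDGF depletion (2.89-fold, 1.67 to 4.71) and HDGF 658 bp upstream in control (2.99-fold, 1.92 to 4.46). Both windows also hold an end of MRPS12, which encodes a mitochondrial ribosomal protein. LARS2 (chr3:45388576-45549407, plus strand), for leucyl-tRNA synthetase, had HDGF 911 bp downstream of the start in starvation (2.45-fold, 1.64 to 3.53) and INTS13 433 bp downstream after HDGF depletion (2.89-fold, 1.67 to 4.71). IARS2 (chr1:220094132-220148041, plus strand), for isoleucyl-tRNA synthetase, was marked by HDGF in control alone. Its stronger HDGF summit lay 605 bp upstream of the start (3.51-fold, 2.34 to 5.09). The other lay 16 bp inside the far end (2.60-fold), in a window shared with RAB3GAP2. MARS2 (chr2:197705369-197708395, plus strand), for methionyl-tRNA synthetase, likewise had HDGF in control alone, 745 bp beyond its far end (2.60-fold, 1.62 to 3.99).

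The position along the gene differed between the lists. Strand was known for 30 of the synthetase genes and for 15843 protein-coding genes. INTS13 after HDGF depletion had a summit within 1 kb of the start site at 12 of the 30 (40%), against 13.9% of protein-coding genes, and within 1 kb of the far end at 4 (13.3%), against 10.8%. HDGF control showed the other order, with 4 of 30 at the start (13.3%), against 10.4%, and 9 at the far end (30%), against 14.3%. HDGF starvation had 5 of 30 at the start (16.7%), against 13.3%, and 6 at the far end (20%), against 14.9%. Within 250 bp of the start, HDGF had HARS2 and RARS1 in starvation (2 of 30, against 3.93%) and PARS2 in control (1 of 30, against 1.31%). INTS13 had EPRS1, KARS1 and YARS2 there after HDGF depletion (3 of 30, against 4.48%), and KARS1 and YARS2 both in starvation (3.61%) and in control (1.87%). In the 1 kb window, INTS13 starvation had 2 at the start (5.86% of protein-coding genes) and 1 at the far end (2.05%), and INTS13 control had 2 at the start (3.74%) and 1 at the far end (2.1%).

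All 12 INTS13 summits near a synthetase start after HDGF depletion lay downstream of it, from 23 bp (KARS1) to 931 bp (SARS1). Over all protein-coding genes, 1294 of 2625 such summits (49.3%) were downstream. The 4 HDGF control summits near a synthetase start, at IARS2, PARS2, SARS1 and SARS2, all lay upstream, where 35% of such summits over all genes were downstream. HDGF starvation had 3 downstream and 2 upstream, with 52.5% downstream over all genes. This side-of-start pattern was noticed in the values, and no test of it was made. With the depletion list cut toward the length of the INTS13 control list, 5 of the 12 start-site genes remained (16.7% of 30), against 4.95% of protein-coding genes. They were EPRS1, KARS1, PARS2, TARS2 and YARS2. WARS1 was lost with the peaks tied at the cut, at rank 29629.

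**Figure D4:**
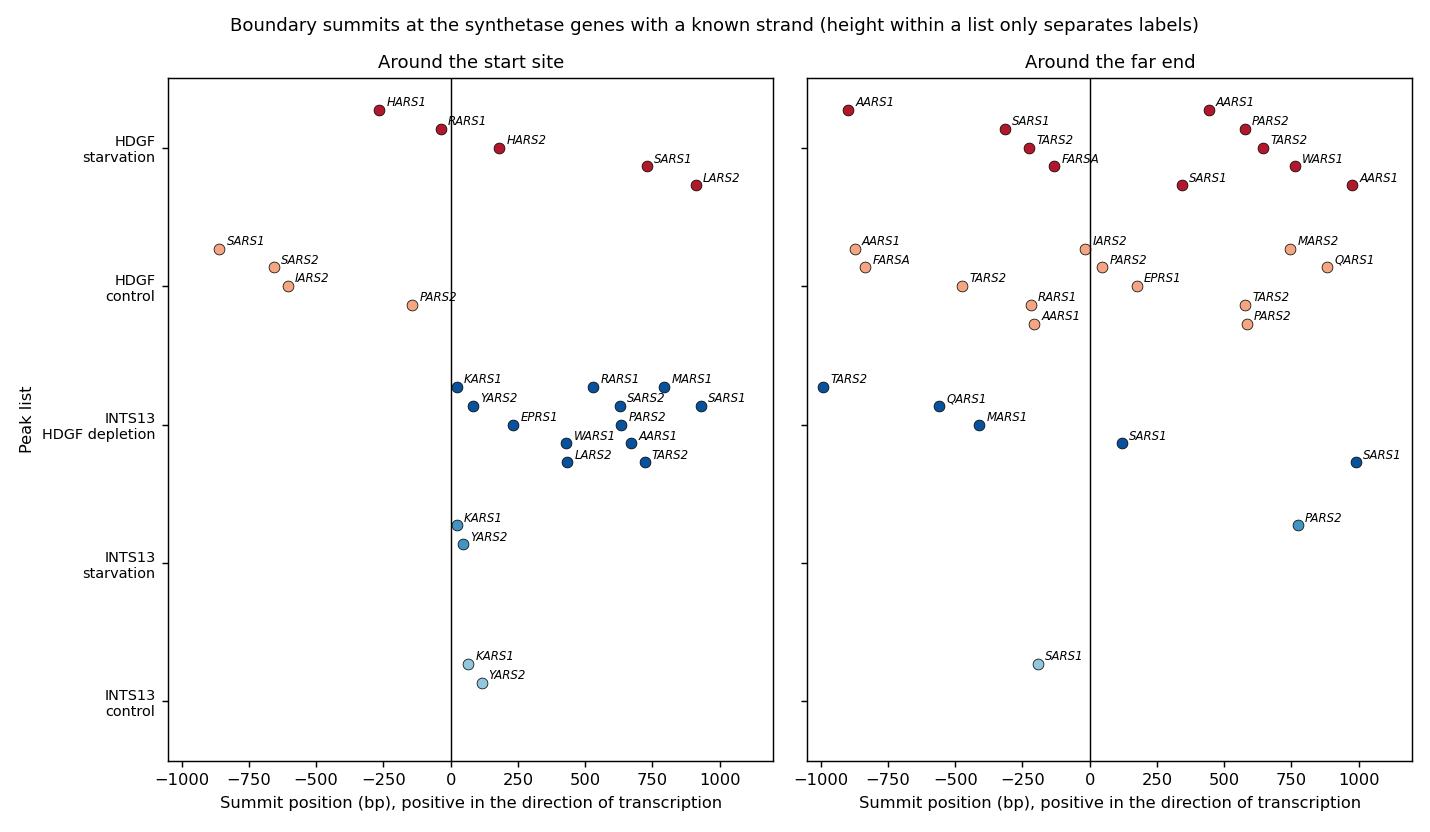
Position in bp of each boundary summit relative to the start site (left) and the far end (right) of the 30 synthetase genes with a known strand, positive in the direction of transcription; rows and colours are the 5 lists, and height within a row only separates the labels. After HDGF depletion the 12 INTS13 summits near a start all lie to the right of it, while the 4 HDGF control summits lie to the left.

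Between HDGF starvation and HDGF control, 7 synthetase genes were marked in both lists (10.1% of protein-coding genes), 4 in starvation only (11.5%) and 5 in control only (9.18%). The genes in starvation only were HARS1, HARS2, LARS2 and WARS1, and those in control only were EPRS1, IARS2, MARS2, QARS1 and SARS2. Of the 7 in both, AARS1, PARS2, TARS2 and YARS1 had overlapping peaks, as did 5.82% of protein-coding genes. The starvation genes are thus 63.6% shared with control and the control genes 58.3% shared with starvation, where the same shares over all genes were 46.8% and 52.5%. With the control list cut toward the length of the shorter starvation list, HDGF marked 11 synthetase genes in starvation (21.7% of protein-coding genes) and 5 in control (12.2%). AARS1, PARS2 and YARS1 were in both. Peaks tied at the cut were dropped together, so control kept 59254 peaks against 68138. The strongest control peaks of EPRS1, QARS1, RARS1, SARS1 and TARS2 all ranked 59255, the first rank dropped. Their loss follows the tie rule, and the fall to 5 is not read as a difference between conditions.

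Between INTS13 after HDGF depletion and INTS13 control, the 5 control genes (AARS2, KARS1, SARS1, YARS1 and YARS2) were all marked after depletion too (3.88% of protein-coding genes), each with overlapping peaks (2.86%). A further 10 were marked after depletion only (15.2%), and none in control only (0.893%). The 10 were AARS1, EPRS1, LARS2, MARS1, PARS2, QARS1, RARS1, SARS2, TARS2 and WARS1. The depletion list is over 3 times the length of the control list (105994 against 31233 peaks). With the depletion list cut toward the control's length, 7 synthetase genes were marked after depletion (6.69% of protein-coding genes) and 5 in control (4.77%). Peaks tied at the cut were dropped together, so the depletion list kept 29628 peaks against 31233. AARS2, KARS1, YARS1 and YARS2 were in both, and EPRS1, PARS2 and TARS2 in the depletion list only. SARS1 was then marked in control only, but its strongest depletion peak ranked 29629, the first rank dropped, so its loss follows the tie rule. Of the other 7 of the 10, WARS1 was lost at the same tied rank. The strongest peaks of AARS1, LARS2, MARS1, QARS1, RARS1 and SARS2 ranked from 44154 to 81417 in the depletion list, past the cut.

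Between INTS13 starvation and INTS13 control, AARS2, KARS1, YARS1 and YARS2 were marked in both (4 genes; 2.56% of protein-coding genes), with overlapping peaks at all 4 (1.81%). PARS2 was marked in starvation only (4.16%) and SARS1 in control only (2.22%). Of the control genes, 80% were marked in starvation, against 53.6% over all protein-coding genes. The same 4 genes were in both lists when the control list was cut to the starvation list's length. As the antibodies differ, neither PARS2 nor SARS1 can be assigned to starvation.

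The lists of INTS13 and HDGF were also compared gene by gene. In starvation 2 genes were marked by both proteins (4.4% of protein-coding genes), PARS2 and YARS1, both with overlapping peaks (2.73%). There INTS13 alone marked 3 genes (2.32%), AARS2, KARS1 and YARS2, and HDGF alone marked 9 (17.3%). In control 2 genes were marked by both (2.98%), YARS1 with overlapping peaks (1.46%) and SARS1 at opposite ends. INTS13 alone marked AARS2, KARS1 and YARS2 in control (1.79%), and HDGF alone marked 10 genes (16.3%). INTS13 after HDGF depletion and HDGF in control had 9 genes in common (9.05%): AARS1, EPRS1, PARS2, QARS1, RARS1, SARS1, SARS2, TARS2 and YARS1. Another 6 had INTS13 after depletion but no HDGF in control (10.1%), and 3 the reverse (10.3%). Peaks overlapped at YARS1 alone among these 9, whereas over all protein-coding genes they overlapped at 838 of the 1813 with both (4.18% of all genes). At AARS1, EPRS1 and RARS1 the HDGF and INTS13 peaks were at different ends of the gene. The other 6 of the 9 had both proteins at a common end, as did 1381 of the 1813 protein-coding genes with both.

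Along the gene bodies, HDGF had 88 summits inside synthetase genes in starvation and 239 in control. Per 10 kb of gene this is 0.438 in starvation (0.349 over all protein-coding genes) and 1.19 in control (0.589 over all). A summit lay inside 17 of the 35 genes in starvation (37.2% of protein-coding genes) and inside 24 in control (45.1%). EPRS1 had none in starvation and 32 in control, IARS2 had 2 in starvation and 25 in control, and RARS1 had 1 in starvation and 12 in control. GARS1 and FARSB, for glycyl-tRNA synthetase and a phenylalanyl-tRNA synthetase subunit, each had none in starvation and 10 in control. YARS1 went the other way, with 28 in starvation and 17 in control. So did AARS2 (7 in starvation, 2 in control), FARSA (6 in starvation, 4 in control) and QARS1 (6 in starvation, 3 in control). Without YARS1 the sums are 60 in starvation and 222 in control, or 0.305 per 10 kb in starvation and 1.13 in control. The starvation rate then lies below that of all genes, and the control rate stays above it. With the control list cut toward the starvation list's length, control had 119, against 88 in starvation. No sum over all protein-coding genes is given at equal length. On the full lists it was 45245 in starvation and 76298 in control.

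INTS13 had 139 summits inside synthetase genes after HDGF depletion, 5 in starvation and 35 in control. Per 10 kb this is 0.692 after HDGF depletion (0.446 over all protein-coding genes), 0.0249 in starvation (0.0556 over all) and 0.174 in control (0.103 over all). YARS1 held 36 of the 139 after depletion and 23 of the 35 in control. Without YARS1, 103 remained after depletion (0.524 per 10 kb) and 12 in control (0.061 per 10 kb), so the control rate then lies below that of all genes. With the depletion list cut toward the control's length, 49 summits remained after depletion, and no sum over all protein-coding genes is given at that length. The 5 in starvation lay 1 each in AARS2, KARS1, PARS2, YARS1 and YARS2, which are the 5 genes with a boundary peak in that list.

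**Figure D5:**
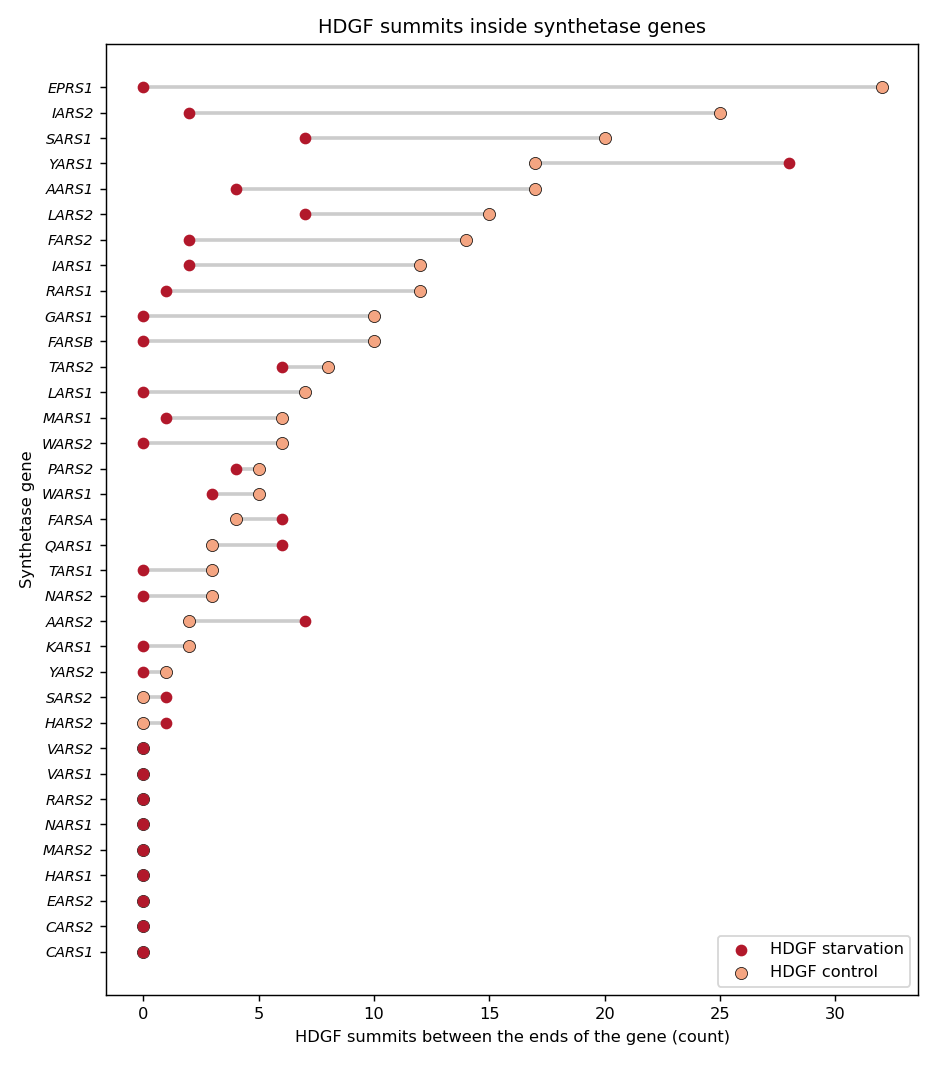
Number of HDGF summits between the ends of each synthetase gene (x axis) in starvation (dark red) and control (light orange), with genes ordered by the control count. EPRS1 stands at 0 in starvation and 32 in control and IARS2 at 2 and 25, whereas YARS1 stands at 28 in starvation and 17 in control.

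No boundary peak was listed at 15 genes: CARS1, FARSB, IARS1, LARS1, NARS1, TARS1 and VARS1 among the cytosolic ones, GARS1 of the dual ones, and CARS2, EARS2, FARS2, NARS2, RARS2, VARS2 and WARS2 among the mitochondrial ones. Of these, CARS1, CARS2, EARS2, NARS1, VARS1 and VARS2 had no summit inside the gene in any list either. NARS1, for cytosolic asparaginyl-tRNA synthetase, stood far from every peak: the nearest summit to either end was 10633175 bp away in HDGF starvation and 8110895 bp away in HDGF control. For INTS13 it was 3522348 bp after HDGF depletion, 10633182 bp in starvation and 10633161 bp in control. NARS1 was not alone in this. The nearest HDGF summit to an end of CARS2 was 10417174 bp away in starvation and 10425080 bp away in control. The nearest INTS13 summit to CARS2 was 2583504 bp away after HDGF depletion, 15865049 bp in starvation and 2583558 bp in control. IARS1, for isoleucyl-tRNA synthetase, only just missed the window, with an HDGF control summit 1008 bp from an end (2.99-fold), against 882 bp for QARS1, the farthest gene counted in that list. The other lists had wider gaps at the edge of the window, 911 bp inside (LARS2) and 1563 bp outside (QARS1) in HDGF starvation, for example.

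The subset known to be induced in the integrated stress response has 13 members: AARS1, CARS1, EPRS1, GARS1, IARS1, LARS1, MARS1, NARS1, SARS1, TARS1, VARS1, WARS1 and YARS1. HDGF marked 4 of the 13 in starvation (30.8%; all protein-coding genes 21.7%) and 4 in control (30.8%; all 19.3%). INTS13 marked 6 after HDGF depletion (46.2%; all 19.1%), 1 in starvation (7.69%; all 6.71%) and 2 in control (15.4%; all 4.77%). The shares over all genes are the same for the groups that follow. The 6 cytosolic or dual genes outside the subset (FARSA, FARSB, HARS1, KARS1, QARS1 and RARS1) had 3 marked by HDGF in starvation and 3 in control, and 3 by INTS13 after HDGF depletion, 1 in starvation and 1 in control. Of the 7 members that are subunits of the multi-synthetase complex (EPRS1, IARS1, KARS1, LARS1, MARS1, QARS1 and RARS1), HDGF marked 1 in starvation and 3 in control. INTS13 marked 5 of the 7 after HDGF depletion, 1 in starvation and 1 in control. The mitochondrial genes had 4 of 16 marked by HDGF in starvation and 5 in control, and 6 by INTS13 after HDGF depletion, 3 in starvation and 2 in control. As shares, HDGF marked 25% of the mitochondrial genes in starvation and 31.2% in control, and INTS13 37.5% after HDGF depletion, 18.8% in starvation and 12.5% in control. In counts this small the groups differ by a few genes.

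The start windows of the 30 genes with a RefSeq promoter entry were searched on both strands for TGATGCAA, a C/EBP-ATF element of the kind ATF4 binds. It was found at 5 genes (16.7%), against 0.675% of 15843 protein-coding genes with a window: AARS1, CARS1, IARS1, MARS1 and NARS1, for alanyl-, cysteinyl-, isoleucyl-, methionyl- and asparaginyl-tRNA synthetase. All belong to the stress-induced subset, of which 10 have a window, and none to the 20 others. A further start window of TARS1 also holds the element, which gives 6 genes when every annotated start is used, against 0.903%. Counted from the start site, with negative values upstream, the first base of the match lies at -187 in AARS1, -2 in CARS1, -13 in IARS1, -4 in MARS1 and 14 in NARS1. Relaxed to TGATGNAA, which includes the strict matches, the search added YARS2 (6 of 30, against 2.51%).

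None of the 5 matches lay inside a peak of any list. Matches at other genes were not compared with peaks. Over all protein-coding genes, from 1.31% (HDGF control) to 4.48% (INTS13 after HDGF depletion) had a summit within 250 bp of the start. Peaks so close to a start are few in every list, and the absence at 5 matches is not read as a result. The nearest summit was 795 bp from the match at MARS1 and 855 bp from it at AARS1, both INTS13 after HDGF depletion, and 1017 bp from it at IARS1 in HDGF control. At CARS1 the nearest was 9942 bp away, in INTS13 after HDGF depletion, and at NARS1 it was 3543510 bp away in the same list. The elements are shown with 20 bases on each side, 5′ to 3′ on the gene's strand (RefSeq, GRCh38.p14), with the match in capitals, either as TGATGCAA or as its reverse complement TTGCATCA. They lie at chr16:70289666-70289713 (AARS1, minus), chr11:3057398-3057445 (CARS1, minus), chr9:92293683-92293730 (IARS1, minus), chr12:57488044-57488091 (MARS1, plus) and chr18:57621795-57621842 (NARS1, minus).
AARS1: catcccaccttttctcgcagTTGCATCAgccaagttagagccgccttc
CARS1: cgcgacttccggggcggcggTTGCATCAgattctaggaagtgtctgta
IARS1: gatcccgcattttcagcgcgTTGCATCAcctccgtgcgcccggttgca
MARS1: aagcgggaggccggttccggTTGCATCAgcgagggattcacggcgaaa
NARS1: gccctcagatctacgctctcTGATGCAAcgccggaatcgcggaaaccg

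The ETS core CCGGAAG was found on either strand in 15 of the 30 windows (50%), against 14.2% of protein-coding genes, including those of KARS1 and RARS1 shown above. GGGCGG, a GC box, was in 20 of 30 (66.7%), against 58.3%. These matches describe the letters of the windows and are not read as binding sites.

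Outside the synthetases, 21 further genes of tRNA charging and of the response to uncharged tRNA were followed, 12 of which had a boundary peak in some list. HDGF marked 6 of the 21 in starvation (28.6%; all protein-coding genes 21.7%) and 9 in control (42.9%; all 19.3%). INTS13 marked 5 after HDGF depletion (23.8%; all 19.1%), 2 in starvation (9.52%; all 6.71%) and 1 in control (4.76%; all 4.77%), so its shares in depletion and control are near those of all genes. ATF4 itself had HDGF at 3.34-fold in starvation and 4.03-fold in control, and INTS13 at 4.43-fold after HDGF depletion and 4.05-fold in control, but no INTS13 boundary peak in starvation. The stress genes CEBPB, DDIT3 and PPP1R15A, for 2 transcription factors and a phosphatase subunit that restores translation, had HDGF in both conditions and INTS13 after HDGF depletion. CEBPB had HDGF at 3.16-fold in starvation and 2.73-fold in control, and INTS13 at 3.27-fold after HDGF depletion and 3.18-fold in starvation. DDIT3 had HDGF at 3.25-fold in starvation and 2.73-fold in control, and its INTS13 peak after HDGF depletion is the one at the far end of MARS1 (3.27-fold). PPP1R15A had HDGF at 3.52-fold in starvation and 3.25-fold in control, and INTS13 at 2.89-fold after HDGF depletion. None of these 3 had an INTS13 boundary peak in control. CEBPG, a partner of ATF4, had HDGF in control (2.34-fold), while GCN1, which acts with the sensor kinase of uncharged tRNA, and TRIB3, a pseudokinase that restrains the response, had HDGF in starvation (2.81-fold and 2.98-fold).

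Of the complex's scaffold genes, AIMP2 had HDGF in control (2.99-fold) and EEF1E1 had INTS13 after HDGF depletion (3.27-fold). GATC, a subunit of the mitochondrial amidotransferase that makes glutaminyl-tRNA, had HDGF in control (3.12-fold), as did AARSD1, which clears mischarged alanyl-tRNA (2.86-fold). DTD2, a tRNA editing enzyme, had INTS13 in starvation, 122 bp inside an end (2.95-fold), and HDGF in control (2.73-fold). The remaining 9 (AIMP1, DTD1, EIF2AK4, EIF2S1, GATB, MTFMT, PSTK, QRSL1 and SEPSECS) had no boundary peak. For comparison, HDGF marked 6 of 20 amino acid supply genes in starvation (30%; all protein-coding genes 21.7%) and 9 in control (45%; all 19.3%). INTS13 marked 4 of them after HDGF depletion (20%; all 19.1%), 1 in starvation (5%; all 6.71%) and 1 in control (5%; all 4.77%). Of 34 translation factor genes, HDGF marked 13 in starvation (38.2%) and 16 in control (47.1%). INTS13 marked 9 of the 34 after HDGF depletion (26.5%), none in starvation and 3 in control (8.82%). The INTS13 shares of the amino acid supply genes thus lie near those of all genes.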

How the data were processed

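Per the labels' protocols, formaldehyde-fixed chromatin was sequenced with 150 bp reads from both ends. FastQC, Trimmomatic, Bowtie, Picard, MACS2 and hg38 are named in the submitters' processing notes. The deposited peak names carry the value 0.05. Versions, other settings and the way replicates and inputs entered peak calling were not given in the sources used here. The authors deposited 1 list per ChIP group. Per deposited peak it holds an integer score (not used for any result), a fold ratio, a −log10 p, a −log10 q and a summit offset.

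Summits were placed against RefSeq genes of GRCh38.p14, the assembly of hg38, in Python 3.11.15 with numpy 2.4.6, pandas 2.3.3, scipy 1.17.1 and matplotlib 3.10.9. For each gene the boundary peak with the highest −log10 p was described. Background reads per list were recovered from the deposited pairs of fold and p, which followed a Poisson distribution, and the calculation was checked on simulated data. Shares carry exact Clopper-Pearson intervals, for counting error only. Strand came from RefSeq promoter entries; AARS2, LARS1, VARS1, VARS2 and YARS1 have no such entry, and their ends are given by coordinate. Peaks of 2 lists overlapped when they shared at least 1 base. Every synthetase gene with a boundary peak is named with its values, as are the further pathway genes with one. Members and lists were chosen with earlier results of these data known. Only 1 list was deposited per group, so no test was made. Alternatives are given in the closing section.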

Additional observations from a re-analysis of the deposited data

How the results depend on the processing

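Over 90 alternatives, 48 values stayed within 1.5 times the reported value and 42 did not; the 7 alternatives for summits inside genes and for the start site at control length were chosen after seeing the data. Counting the start site alone (30 genes with strand) gave 5 and 4 genes for HDGF starvation and control, and 2 and 2 for INTS13 starvation and control; genes in both became 1 for HDGF starvation against control, 2 for INTS13 HDGF depletion against control, 2 for INTS13 starvation against control, 0 for INTS13 and HDGF in control, 0 in starvation, and 3 for INTS13 HDGF depletion and HDGF control. Genes outside chromosomes 1, 13, 22 and X numbered 7 and 6 for HDGF starvation and control and 3 and 3 for INTS13 starvation and control; genes in both became 3 for HDGF starvation against control, 3 for INTS13 HDGF depletion against control, 0 for INTS13 and HDGF in control, 0 in starvation, and 4 for INTS13 HDGF depletion and HDGF control. A window of 500 bp gave 7 for HDGF control and 9 for INTS13 HDGF depletion, with genes in both of 4 (HDGF starvation against control), 1 (INTS13 and HDGF in control), 1 (in starvation) and 2 (INTS13 HDGF depletion and HDGF control). A window of 2500 bp gave 21 for HDGF control, with genes in both of 12 (HDGF starvation against control), 6 (INTS13 and HDGF in control) and 15 (INTS13 HDGF depletion and HDGF control). Cut to the length of the shortest list, HDGF starvation had 2 genes, HDGF control 2 and INTS13 HDGF depletion 6. At equal length, genes in both were 3 for HDGF starvation against control, 1 for INTS13 and HDGF in control and 1 in starvation. With overlapping peaks required they were 4 for HDGF starvation against control, 1 for INTS13 and HDGF in control and 1 for INTS13 HDGF depletion and HDGF control. At equal length the HDGF control list had 119 summits inside the genes, the INTS13 HDGF depletion list 49 and 5 start-site genes; without YARS1, INTS13 control had 12. Requiring a −log10 q of at least 2, or taking any base of a peak, moved no count by over 1.5 times. Equal-length lists fall short of the target where peaks tie, because peaks tied at the cut were dropped together. Against HDGF starvation (68138 peaks) the HDGF control list kept 59254. Against INTS13 control (31233 peaks) the INTS13 HDGF depletion list kept 29628. Cut to the shortest list (15639 peaks), HDGF control kept 11055. Genes tied at a cut were lost with these peaks, so the lower counts depend in part on the tie rule. AARS2, KARS1, YARS1 and YARS2 stayed in both INTS13 starvation and control at 500 bp and at equal length.

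Each group has 2 labelled replicates but 1 list, so leaving out a replicate was not possible. No paired analysis was possible because the deposited lists do not separate the replicates. A gene without a peak is one not listed at that list's depth, which differs between lists.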
